A study of Mus musculus with 10 samples.

Results

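A set of 9 genes that restrain growth or run the FoxO program was followed in the gastrocnemius (GAS) of diet-induced obese (DIO) mice, chosen by symbol from the 21098 genes of the deposited table: Foxo1, Foxo3, Foxo4, Ddit4, Sesn1, Sesn2, Sesn3, Tsc1 and Tsc2. The animals were male wild-type C57BL/6J mice (C57BL/6JBomTac in the study's methods) that went onto a 60% fat diet at 9 weeks of age, were dosed from 9 weeks later and kept the diet throughout. The labels give their age as 30 weeks, which is less than these spans and the dosing add up to. A group of 5 mice received weekly subcutaneous injections of the anti-miR-22 ASO (RES-010, an antisense oligonucleotide with locked nucleic acid bases against miR-22) at 10 mg/kg for 14 weeks. The other 5 mice received 0.9% saline (CTRL), so both groups carried the diet and there was no lean group. In the body weights that the paper lists, the ASO mice were already heavier on the first day. Both the lightest and the heaviest ASO mouse then exceeded its CTRL counterpart. Each library is bulk mRNA of muscle tissue, in which fewer cells of a type and less RNA per cell cannot be told apart. Of the 9 genes, 7 had counts and 2, Foxo1 and Sesn1, were listed at 0 in all 10 libraries.

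FoxO factors are forkhead transcription factors that Akt phosphorylates and keeps out of the nucleus when insulin or growth factor signaling is high. In muscle they are known for driving ubiquitin ligases and autophagy genes during wasting, and Foxo1, Foxo3 and Foxo4 share this role in part. The Tsc1 and Tsc2 proteins form a complex that holds the small GTPase Rheb inactive and so restrains mTORC1, the kinase complex that promotes protein synthesis and blocks autophagy. Ddit4 (also known as REDD1) acts through the Tsc complex under stress, and the sestrins Sesn1, Sesn2 and Sesn3 act through GATOR2 to restrain mTORC1. The comparison asks how the transcripts of these brakes stood after the miRNA had been blocked.

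The ASO is directed at miR-22, and the sequence of its guide strand miR-22-3p is shown with the seed, bases 2 to 8, in capitals, because the seed sets which 3′UTR letters pair with it (RefSeq, GRCm38.p6 chr11:75463772-75463793, plus strand). The reverse complement of the seed is GGCAGCT, and it was sought on the sense strand of every gene's longest 3′UTR (GENCODE M39, GRCm39). Below it stand the 6 matches found in these genes, each in capitals with its flanks.
mmu-miR-22-3p: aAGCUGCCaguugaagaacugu
Foxo1 (chr3:52256564-52256570, plus strand): tcattcagtagaGGCAGCTaccgccctggc
Foxo3 (chr10:42060188-42060194, minus strand): atgtctcagggtGGCAGCTgaaggaacaga
Ddit4, first (chr10:59785996-59786002, minus strand): cagagccagaagGGCAGCTggtctgcactg
Ddit4, second (chr10:59785816-59785822, minus strand): tgacctgttcgaGGCAGCTatcttacagac
Sesn1 (chr10:41783536-41783542, plus strand): cagtgagcactcGGCAGCTttggtgttaga
Tsc1 (chr2:28577721-28577727, plus strand): ctgccttttcttGGCAGCTctgatatgatt

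All 6 lie in annotated 3′UTRs. A match was present in 5 of the 9 genes, beside 16.3% of 21540 protein-coding genes with a 3′UTR. It was present in 3 of the 7 with counts, beside 21.7% of 7781 tested genes. With a 3′UTR of 3000 bp or more, 3 of 4 of these genes and 34.0% of all genes held one. So few genes do not allow the shares to be compared. The matches in Foxo1 and the second in Ddit4 are followed by an A. Foxo4, Sesn2, Sesn3 and Tsc2 have no GGCAGCT in this window. A match is a description of the letters and not a shown site of binding, and the second match in Ddit4 is the only one that lies inside a segment with counts.

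The unit of the table is a segment of at most 500 bp at the 3′ end of a transcript, so where a gene was counted depends on how its transcripts end. For Foxo4, Ddit4 and Sesn2 all counts fell on 1 segment of 500 bp at the annotated 3′ end, at chrX:100303980-100304479 (plus strand), chr10:59785491-59785990 (minus strand) and chr4:132219343-132219842 (minus strand). For Sesn3, 99.1% of the counts fell on chr9:14243898-14244397 (plus strand), its most distal segment. Foxo3 was counted on its most distal segment, chr10:42057837-42058336 (minus strand), and on chr10:42061782-42062281, which lies in the same 3′UTR 3945 bp upstream. Tsc1 was counted wholly, and Tsc2 mostly, away from the 3′ end. The Tsc1 segments with counts, and the Tsc2 segment with most of them, are the ends of transcripts annotated as nonsense-mediated decay. They also overlap exons of protein-coding transcripts, so their counts do not tell the 2 types of transcript apart. Tsc1 has 78.1% of its counts on chr2:28578061-28578560 (plus strand), inside the 3′UTR but 2619 bp upstream of its end, and 21.9% on chr2:28562020-28562519, which spans 112 bp of coding exon and 388 bp of intron. Its 4 protein-coding transcripts that share the end chr2:28580680-28581179 were listed at 0. Tsc2 has 84.0% of its counts on chr17:24823617-24823886 (minus strand), with 101 bp of coding exon and 169 bp of intron, while its distal segments overlap each other and Pkd1 on the opposite strand. That upstream segment held 93.5% of the Tsc2 counts in CTRL and 59.3% with the ASO.

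The zeros of Foxo1 and Sesn1 cannot be read as absence of expression. Sesn1 has 2 transcripts with the identical segment chr10:41783921-41784420, and none of the 11480 segments that share coordinates with another holds a count. The 500 bp segment of Foxo1, chr3:52260143-52260642, overlaps no other segment and was still at 0, as were 29.4% of the 4555 genes counted on a single full segment of their own.

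Library totals lay between 1606909 and 2116720 counts in CTRL and between 2239186 and 2632560 with the ASO, so every treated library was deeper. Levels are given as CPM of the TMM-scaled library, and differences as log2 fold changes of the ASO over CTRL with their standard errors from edgeR's quasi-likelihood fit over 7813 genes. Of those genes 11.8% were higher and 17.4% lower at a Benjamini-Hochberg adjusted p-value under 0.05, and the median log2 fold change was −0.03. Beside this background, 0 of the 7 tested FoxO and restraint genes were higher and 2, Tsc1 and Tsc2, were lower. At an unadjusted p under 0.05, which 18.2% of all genes passed as higher and 23.0% as lower, Foxo3 and Foxo4 were higher. DESeq2, which called 10.8% of all genes higher, called both past its threshold. Scaling by total counts moved the median of all genes by −0.18 and changed the direction of none of the 7.

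Foxo3, the FoxO factor best known for atrophy and autophagy genes, had 54.7, 51.8, 36.6, 49.0 and 52.8 CPM in CTRL 1 to 5 and 54.1, 59.5, 66.8, 70.6 and 66.0 CPM in ASO 1 to 5. All treated libraries but ASO 1 were above every control library. The log2 fold change was 0.37 (SE 0.14), short of the threshold (adjusted p = 0.068), and an exact two-sided permutation test of the mean log2 levels over all labellings of the libraries gave p = 0.016.

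Foxo4 was the most abundant of the group, at 260.3, 299.4, 191.2, 306.2 and 237.6 CPM in CTRL and 365.5, 359.0, 299.0, 281.8 and 520.6 CPM with the ASO. The ranges overlapped, and the highest value was that of ASO 5. Its log2 fold change was 0.50 (SE 0.19, adjusted p = 0.068; exact permutation p = 0.048). The exact p rose to 0.079 when any 1 of CTRL 1, CTRL 3, CTRL 5, ASO 1, ASO 2 and ASO 5 was left out. Foxo6, the remaining FoxO gene of the mouse and no part of the list, stood at 28.7 ± 10.8 CPM in CTRL and 36.5 ± 12.4 CPM in treated mice (SD, n = 5), with a log2 fold change of 0.35 (SE 0.30, adjusted p = 0.41).

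Ddit4, a stress and glucocorticoid induced brake, had 12.3, 18.2, 20.8, 15.3 and 33.1 CPM in CTRL and 23.7, 23.8, 22.0, 68.5 and 21.2 CPM with the ASO. ASO 4 stood far above the other treated libraries, and CTRL 5 exceeded those others. The log2 fold change was 0.68 (SE 0.37, adjusted p = 0.19) and fell to 0.21 without ASO 4 (adjusted p = 0.56). The summed level of the slow fiber markers was 82.0 CPM in CTRL 5, the lowest of CTRL, and 7767 CPM in ASO 4, the highest of all. Whether these marker levels bear on Ddit4 was not tested.

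The sestrins counted here bind leucine (Sesn2) or are FoxO targets themselves (Sesn3). Sesn2 had the lowest CTRL level of the 7 genes with counts, with 0.943, 8.39, 26.2, 8.85 and 8.43 CPM in CTRL and 17.4, 11.5, 20.3, 10.0 and 14.1 CPM with the ASO. The control values rest on 2 to 53 counts, and CTRL 3 alone exceeded all treated libraries. The log2 fold change was 0.47 (SE 0.52, adjusted p = 0.53), and it was 1.15 without CTRL 3 (adjusted p = 0.077) and 0.17 without CTRL 1 (adjusted p = 0.76). CTRL 3 also had the highest summed adipocyte markers of the 10 libraries (14058 CPM) and the lowest summed muscle fiber markers (54780 CPM).

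Sesn3 stood at 29.7, 23.8, 27.2, 29.5 and 26.4 CPM in CTRL and 32.4, 34.0, 28.3, 40.9 and 33.5 CPM with the ASO. Of the treated libraries only ASO 3 fell within the control range. Its log2 fold change was 0.31 (SE 0.15, adjusted p = 0.13; exact permutation p = 0.024).

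Tsc1, the stabilizing subunit of the Tsc complex, had 27.4, 29.8, 40.0, 51.9 and 75.8 CPM in CTRL and 7.24, 8.50, 12.7, 12.5 and 12.3 CPM with the ASO. Every treated library was below every control library. The log2 fold change was −2.07 (SE 0.30, adjusted p = 5.4e-04).

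Tsc2, the subunit with the GTPase-activating domain, had 23.6, 14.5, 29.6, 44.3 and 35.4 CPM in CTRL and 5.31, 10.6, 13.1, 9.18 and 8.96 CPM with the ASO. The groups did not overlap here either, with a log2 fold change of −1.62 (SE 0.31, adjusted p = 0.0026). For both Tsc genes the exact permutation p was 0.0079, the smallest that 5 against 5 libraries allow. Groups without overlap were found in 7.97% of tested genes with the ASO above and in 13.4% with the ASO below.

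**Figure D1:**
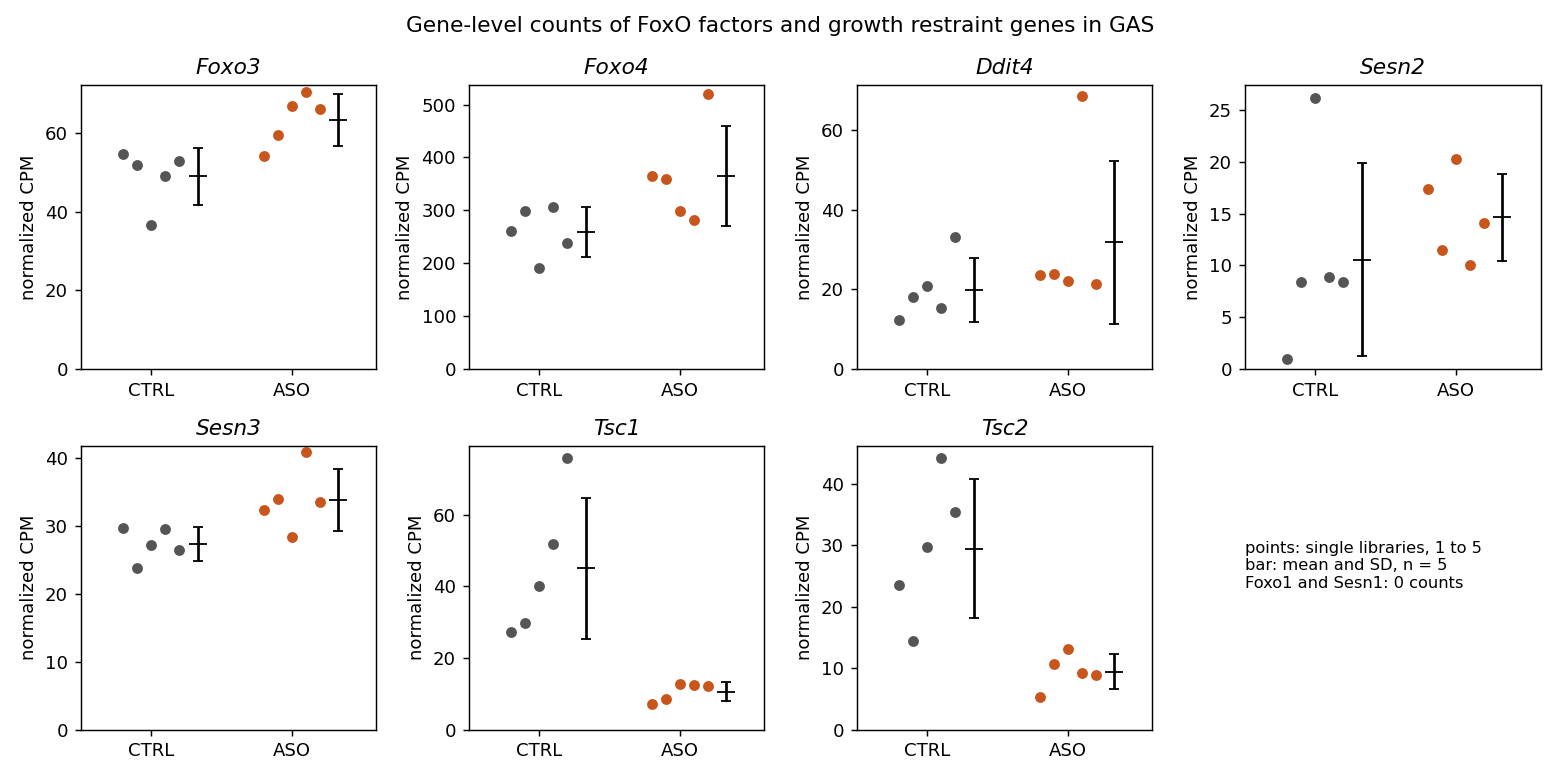
Normalized CPM (vertical axes, linear from 0) of the 7 genes with counts in the 5 CTRL libraries (gray) and the 5 ASO libraries (orange), with bars for the mean and SD. The groups are apart for Tsc1 and Tsc2, while Ddit4 has 1 treated library at 68.5 CPM and Sesn2 1 control library at 26.2 CPM.

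On segments of the same length, 500 bp, levels could be set side by side within CTRL. Foxo4 came first at 259.0 ± 47.2 CPM, above every value of the others. Foxo3 followed on its distal segment (33.4 ± 11.5 CPM), then Sesn3 (27.0 ± 2.55 CPM), Ddit4 (19.9 ± 8.03 CPM) and Sesn2 (10.6 ± 9.34 CPM; SD, n = 5 throughout). The ranges of each of these 4 neighbours overlapped. The larger Tsc1 segment, 34.9 ± 13.5 CPM, lies upstream and was not ranked with the distal ones.

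Because Foxo3 was counted at both ends of its 3′UTR, its segments were read apart. The distal segment had 45.3, 45.7, 27.7, 28.3 and 20.2 CPM in CTRL and 53.1, 56.5, 65.6, 68.9 and 64.1 CPM with the ASO. The upstream segment had 8.96, 5.13, 7.41, 18.3 and 30.3 CPM in CTRL and 0.966, 2.55, 0.846, 0.835 and 1.41 CPM with the ASO. The groups did not overlap on either segment and moved in opposite directions. In a fit of all segments, added after the gene-level result was known, the distal segment had a log2 fold change of 0.92 (SE 0.22, edgeR adjusted p = 0.0046) and the upstream one −3.29 (SE 0.56, adjusted p = 6.1e-04). The distal segment held 82.8, 88.3, 75.7, 57.8 and 38.3% of the counts of Foxo3 in CTRL and 98.2, 95.0, 98.1, 97.6 and 97.1% with the ASO, a difference in means of 28.6 percentage points (exact two-sided permutation p = 0.0079, the smallest possible). The gene-level value of Foxo3 is thus the sum of a larger distal and a smaller upstream count.

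For Tsc1 no difference in the corresponding share was detected. Its segment inside the 3′UTR held 78.9 ± 4.14% of the counts in CTRL and 80.2 ± 12.2% in treated mice (SD, n = 5; exact permutation p = 0.89). Both Tsc1 segments were lower, by log2 fold changes of −2.01 (SE 0.28, adjusted p = 1.9e-04) inside the 3′UTR and −2.05 (SE 0.55, adjusted p = 0.010) over the coding exon and intron. The upstream segment of Tsc2 was lower by −2.23 (SE 0.32, adjusted p = 2.1e-04), at 13.5 to 41.9 CPM in CTRL and 3.38 to 6.77 CPM in treated mice. The 500 bp segment of Tsc2 that lies 121 bp from the most distal end held only 0 to 4 counts in each CTRL library and 3 to 9 in each ASO library, or 1.20 ± 0.804 and 2.27 ± 0.951 CPM, and did not pass the filter on low counts. With 9.82% of the Tsc2 counts, it also fell short of the 10% set for a comparison of shares. The Tsc2 segments 654 bp and 121 bp upstream and the most distal one summed to 2, 12 and 4 counts in CTRL. With the ASO, in deeper libraries, they summed to 6, 26 and 12, so these few counts did not fall with the upstream segment. No segment at the end of Tsc1 or Tsc2 could be tested, and the lack of counts there cannot be read as a low level. The Tsc1 end is shared by 4 transcripts, and no segment with shared coordinates holds a count. The Tsc2 segment 121 bp from the most distal end has 0 bases outside other segments.

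**Figure D2:**
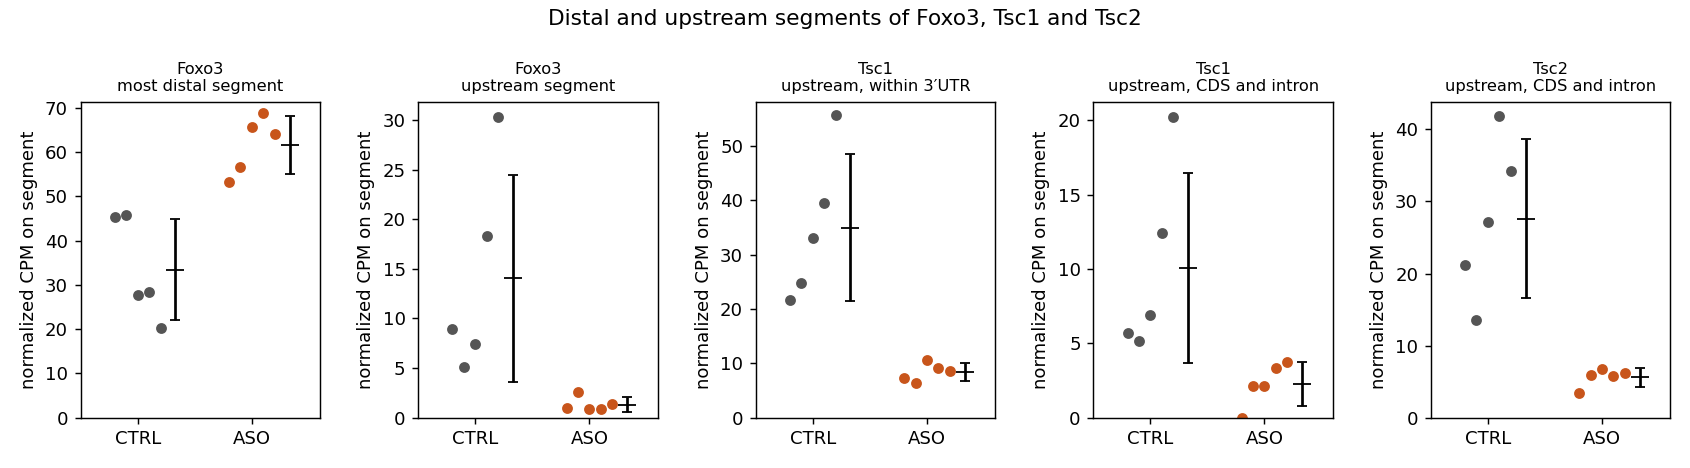
Normalized CPM on single segments (vertical axes, linear from 0) of Foxo3, Tsc1 and Tsc2 in CTRL (gray) and ASO (orange) libraries, with bars for the mean and SD. The distal segment of Foxo3 is higher in all 5 treated libraries, at 53.1 to 68.9 CPM, and the 4 upstream segments are lower in all 5.

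These opposite moves followed the position of segments across the whole table. Of 5060 most distal segments, 25.2% were higher and 4.37% lower with the ASO, with a median log2 fold change of 0.30. Of 3737 segments at least 1000 bp upstream, 5.43% were higher and 53.7% lower, with a median of −0.86. All 4 tested upstream segments of the FoxO and restraint genes were lower, and a lower value than that of the Tsc1 segment inside the 3′UTR, the Tsc2 segment and the upstream Foxo3 segment was seen in 18.9%, 14.3% and 3.48% of upstream segments. The 5 tested distal segments had log2 fold changes from 0.35 to 0.92, of which Foxo3 and Foxo4 (0.54, SE 0.19, adjusted p = 0.039) passed the threshold. Of all distal segments 7.63% had a larger value than Foxo3 and 28.7% a larger value than Foxo4. The falls of Tsc1 and Tsc2 therefore rest on segments of the class in which most were lower.

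**Figure D3:**
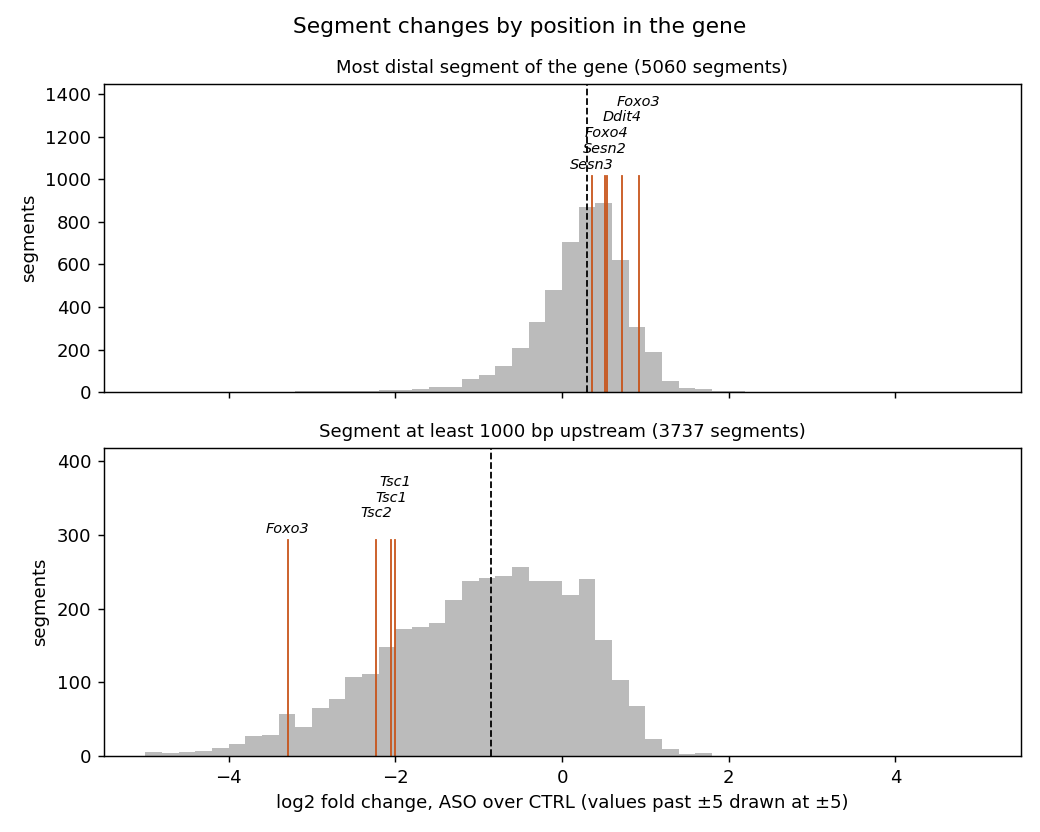
Distribution of log2 fold changes (horizontal axis) of all tested segments at the most distal position (upper panel) and at least 1000 bp upstream (lower panel), with the number of segments on the vertical axes. Dashed lines mark the medians, 0.30 and −0.86, and orange lines the segments of the genes named above them.

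The segments also differed in how they end. Within the last 50 bases, on the sense strand, the polyadenylation hexamer AATAAA was present in the distal segments of Foxo3, Foxo4, Ddit4, Sesn2 and Sesn3, and neither it nor ATTAAA was present in the upstream segments of Foxo3, Tsc1 and Tsc2. Among all tested segments, 83.7% of distal and 27.8% of upstream segments held AATAAA or ATTAAA there. Upstream segments without either hexamer were lower in 64.6% of 2699 cases and those with one in 25.3% of 1038. The Foxo1 segment, at 0 counts, had neither hexamer in that window.

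The balance between the ends of transcripts was also taken per library over 1260 other genes, as the median log2 ratio between the most distal segment and those at least 1000 bp upstream. It was 0.33, 0.43, −0.07, −0.29 and −0.59 in CTRL and 1.18, 1.22, 1.77, 1.47 and 1.52 with the ASO, so the groups did not overlap. Within CTRL, the 5 libraries took the same order in this ratio and in the distal share of Foxo3. Their order of Tsc1 levels was the reverse but for CTRL 1 and CTRL 2. Within the ASO group neither held. ASO 1, with the lowest ratio, had the highest Foxo3 share (98.2%) and the lowest Tsc1 level (7.24 CPM). ASO 3, with the highest ratio, had the highest Tsc1 level (12.7 CPM). What part this balance had in the values of Foxo3, Tsc1 and Tsc2 was not tested, and since it separates the groups it cannot be told apart from the treatment.

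**Figure D4:**
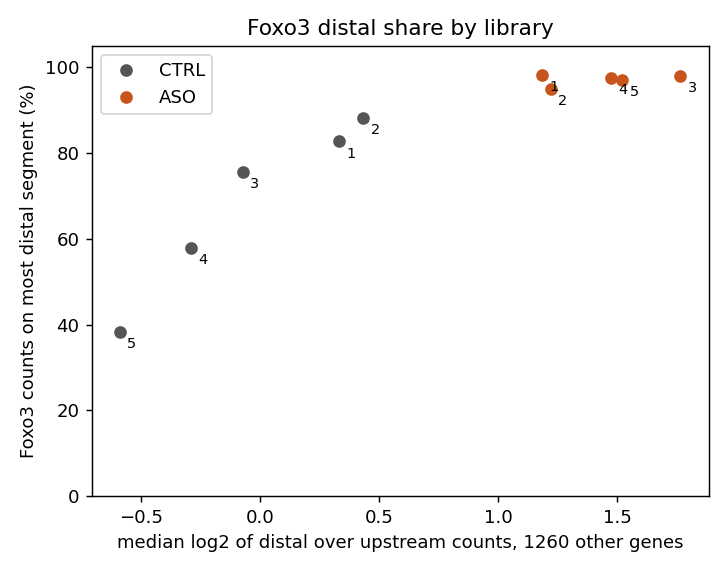
Percent of Foxo3 counts on its most distal segment (vertical axis) against the median log2 ratio of distal to upstream counts over 1260 other genes (horizontal axis), 1 point per library with its replicate number. ASO libraries lie at 95.0 to 98.2% and CTRL libraries at 38.3 to 88.3%, the latter lower where the ratio is lower.

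When only the most distal segments were fitted, and scaled among themselves, none of the 5 genes that could be tested passed the threshold. Few genes did so in that fit, 232 of 5087 as higher and 335 as lower. Foxo3 came nearest, with a log2 fold change of 0.60 (SE 0.18, edgeR adjusted p = 0.056). Foxo4 was at 0.22 (adjusted p = 0.49), Ddit4 at 0.38 (adjusted p = 0.57), Sesn2 at 0.14 (adjusted p = 0.89) and Sesn3 at 0.03 (adjusted p = 0.93). Tsc1 and Tsc2 had no value there.

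The genes whose profile over the 10 libraries was closest to that of Tsc1, by the root mean square difference of centred log2(CPM + 1) values, were Pakap (0.22) and Dmd (0.22), the latter encoding dystrophin. For Tsc2 they were Yes1 (0.25) and Rassf8 (0.26). All 4 were lower, with log2 fold changes of −1.69, −2.13, −1.58 and −1.82 in that order. This direction follows from the choice, since the profiles they were matched to fall with the ASO. All 4 had 0% of their counts on their most distal segment. Of the 7813 tested genes, 2526 had under 10% of their counts there, and 33.1% of those were lower.

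Genes around this axis were read from lists written by hand. Of 29 tested FoxO target genes 6 were higher and 7 lower, with a median log2 fold change of −0.32. Scaling by total counts gave 2 higher and 10 lower, leaving out CTRL 1, CTRL 3, CTRL 4 or CTRL 5 gave 2 or 3 higher, and leaving out ASO 3 or ASO 5 gave 3 or 4 lower. The higher ones included Ulk2 (0.79, SE 0.19, adjusted p = 0.0084), a kinase that starts autophagy, and Sod2 (0.82, SE 0.20, adjusted p = 0.010), the mitochondrial superoxide dismutase. On the most distal segment alone they were at 0.52 and 0.54 and short of the threshold (adjusted p = 0.067 and 0.25). In that fit 1 of 14 targets was higher and 0 were lower, beside 232 higher and 335 lower of 5087 genes. Among the lower ones were Cdkn1b (−1.15, SE 0.18, adjusted p = 9.6e-04), which encodes the cell cycle inhibitor p27, and Mul1 (−1.81, SE 0.30, adjusted p = 0.0011), a mitochondrial ubiquitin ligase. Each of the 7 lower genes had at most 3.05% of its counts on its most distal segment. In the 13 tested targets with 50% or more of their counts there, 4 were higher and 0 lower, with a median of 0.25, where 15.4% of all such genes were higher and 7.11% lower. In the other 16 targets, 2 were higher and 7 lower, with a median of −0.73, where 6.92% of all such genes were higher and 31.1% lower. The ubiquitin ligases that FoxO factors are best known for stood at −0.05 (Fbxo32, SE 0.31, adjusted p = 0.92), counted at its 3′ end, and −0.77 (Trim63, SE 0.22, adjusted p = 0.019), with 0% of its counts at its 3′ end.

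Of 18 tested FoxO regulators 3 were higher and 4 lower, with a median of 0.26, and without ASO 4 there were 5 higher. Over all genes 11.8% were higher and 17.4% lower. Of the 14 regulators with 50% or more of their counts on the most distal segment 3 were higher and 1 lower. Over all genes so counted 15.4% were higher and 7.11% lower. Of the other 4 regulators 0 were higher and 3 lower, where 6.92% of all such genes were higher and 31.1% lower. Pdpk1, the kinase that activates Akt, was lower (−1.49, SE 0.21, adjusted p = 5.1e-04) and stayed lower on its most distal segment alone (−1.03, adjusted p = 0.020). Usp7, a deubiquitinase that acts on FoxO4, was lower (−0.71, SE 0.14, adjusted p = 0.0036), as was the kinase gene Stk3 (−1.58, SE 0.37, adjusted p = 0.0076), both with 0% of their counts at the 3′ end. Foxk2, a forkhead factor, was higher (0.71, SE 0.16, adjusted p = 0.0071), and on its most distal segment alone was at 0.43 (adjusted p = 0.093).

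Of 12 tested genes of the Tsc and Rheb axis and other mTORC1 brakes 0 were higher and 1 was lower, Txnip (−0.61, SE 0.21, adjusted p = 0.040), with a median of −0.01. The shares over all genes were 11.8% higher and 17.4% lower. Txnip was no longer past the threshold with RLE or upper quartile scaling, with no filter, with DESeq2 or limma-voom, or without CTRL 1, CTRL 2, CTRL 4, ASO 1, ASO 3, ASO 4 or ASO 5. Phlpp1, a phosphatase of Akt, was the other gene of this list with an unadjusted p under 0.05 (0.47, SE 0.21, adjusted p = 0.12). Rheb itself, the GTPase that the Tsc complex switches off, had a log2 fold change of 0.21 (SE 0.34, adjusted p = 0.68). Tbc1d7, the third subunit of the Tsc complex, was at 0.09 (SE 0.16, adjusted p = 0.70) and, with 44.8% of its counts on its most distal segment, at 0.0017 there (adjusted p = 0.997). Ddit4l, the muscle-rich relative of Ddit4, was counted only at its 3′ end and was at 0.21 (SE 0.24, adjusted p = 0.55).

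Of 22 tested nutrient sensing genes of the GATOR and Rag group, through which the sestrins act, 3 were higher and 6 lower (median 0.02), with 1 higher under scaling by total counts and without CTRL 5 or ASO 5. Beside them, 11.8% of all genes were higher and 17.4% lower. Among the 13 with 50% or more of their counts on the most distal segment 3 were higher and 2 lower. Over all genes so counted 15.4% were higher and 7.11% lower. Among the other 9, 0 were higher and 4 lower, where 6.92% of all such genes were higher and 31.1% lower. Rptor, the scaffold of mTORC1, had the largest fall of the lists, −3.46 (SE 0.32, adjusted p = 1.1e-04), with 0.659% of its counts at the 3′ end, and Mlst8 (−1.37, SE 0.23, adjusted p = 0.0014) and Depdc5 (−1.71, SE 0.31, adjusted p = 0.0018) had 0% there. Lamtor4, a lysosomal anchor of mTORC1, was counted at its 3′ end and was higher (0.65, SE 0.14, adjusted p = 0.0059), but in the fit of distal segments alone was at 0.35 (adjusted p = 0.10).

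The 3 stress lists are to be read beside the 11.8% of all genes that were higher and the 17.4% that were lower. In them, 1 of 11 tested ATF4 response genes, Atf4, was higher and 2 were lower, Cebpg (−1.03) and Herpud1 (−1.22), with a median of −0.36. Cebpg was at −0.47 on its most distal segment alone (adjusted p = 0.17). Atf4, the transcription factor that induces Sesn2 and Ddit4, rose from 115 ± 15.9 to 255 ± 76.2 CPM (SD over 5 libraries; log2 fold change 1.15, SE 0.19, adjusted p = 0.0013) and was higher on its most distal segment alone (0.85, adjusted p = 0.0085). Of 16 tested p53 response genes, the group to which sestrins belong as targets, 1 was higher and 2 were lower (median 0.20). Bax, which opens the outer mitochondrial membrane in apoptosis, was the higher one (0.67, SE 0.16, adjusted p = 0.0076), and Rrm2b (−0.57) and Tigar (−0.60) were the lower ones. On the most distal segment alone none of the 3 passed the threshold, with Bax at 0.38 (adjusted p = 0.11), Rrm2b at −0.44 (adjusted p = 0.12) and Tigar turned to 0.12 (adjusted p = 0.63). Leaving out single libraries gave 1 to 3 higher, the most without CTRL 2, and 1 to 4 lower, the most without ASO 4. Of 15 tested glucocorticoid response genes 0 were higher and 2 were lower (median 0.07), namely Nr3c1 (−1.92, SE 0.22, adjusted p = 1.4e-04), which encodes the glucocorticoid receptor, and Fkbp5 (−1.09, SE 0.28, adjusted p = 0.011), both with 0% of their counts at the 3′ end. Scaling by total counts gave 4 lower.

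**Figure D5:**
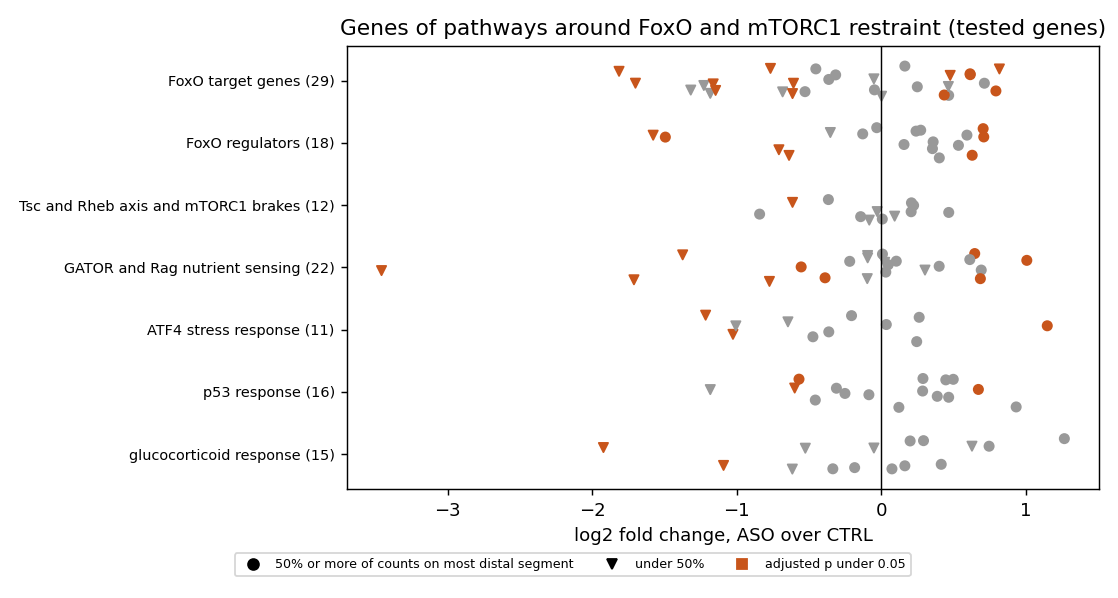
Log2 fold changes (horizontal axis) of the tested genes of the 7 pathway lists, with the number tested in brackets. Orange marks an adjusted p under 0.05, circles genes with 50% or more of their counts on the most distal segment and triangles the others, and in FoxO targets the 7 lower orange marks are all triangles.

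Markers of cell types moved with the groups in part. Over all tested genes 11.8% were higher and 17.4% lower. Of 6 tested skeletal muscle fiber markers 4 were higher and 0 lower (Mylpf and Tnnt3 at 0). The summed level of the listed fiber markers was 54780 to 105719 CPM in CTRL and 109967 to 183297 CPM with the ASO, without overlap. On the most distal segment alone 2 of 5 were higher, beside 232 of all 5087 genes in that fit. Ckm, with 2.44% of its counts there, was at −0.07 (edgeR adjusted p = 0.87) and Tnnc2 at 0.51 (adjusted p = 0.17). Myh1, Myh2, Myh4 and Tnni2 held only 1, 7, 42 and 4 counts and were not tested. Satellite cell markers summed to 43.8 to 66.2 CPM in CTRL and 96.1 to 123 CPM with the ASO (1 of 3 tested higher, Cdh15). That sum was mostly Cdh15, with means of 38.3 CPM in CTRL and 89.6 CPM with the ASO. Pax7 had means of 7.60 and 8.61 CPM, Vcam1 6.60 and 8.03 CPM, and Myf5, not tested, 4.39 and 2.88 CPM. Macrophage markers summed to 261 to 1609 and 74.0 to 575 CPM (1 of 6 lower, Mrc1; Adgre1 and Cd163 at 0), fibroblast markers to 247 to 489 and 70.7 to 469 CPM (1 of 4 lower, Lum; Dcn at 0). Adipocyte (847 to 14058 and 731 to 3883 CPM), slow fiber (82.0 to 2550 and 28.9 to 7767 CPM), endothelial (259 to 442 and 237 to 519 CPM), Schwann cell (59.9 to 104 and 34.8 to 483 CPM) and blood markers (891 to 1468 and 283 to 1715 CPM) overlapped, with 0 tested genes past the edgeR threshold and Tnnt1 of slow fibers and Alas2 of blood at 0. Their part in the values of the FoxO and restraint genes was not tested.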

How the data were processed

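RNA of GAS from 5 ASO-treated and 5 CTRL DIO mice was sequenced by the authors from Illumina stranded mRNA libraries as paired 60 bp reads. The authors trimmed with fastp, used STAR for alignment on GRCm39 and featureCounts for read pairs on Gencode M25 (no strand option is named), and kept only the final 500 bp of each 3′UTR. The reason they gave for this restriction was bias in sequencing coverage. The deposited values are unnormalized counts per transcript segment. Of 52423 segments, 52361 matched GENCODE M39, and the 62 others (0.0197% of the counts) were left out, as were 4 per-sample columns that name no sample of this series. Segments were summed per gene. The members and gene lists were chosen with earlier results of these data known. Text names the 9 members, up to 4 called genes of each list, and the 2 nearest profiles of each called member, and other genes (Foxo6, Fbxo32, Trim63, Rheb, Tbc1d7, Ddit4l, Phlpp1) were named with values in view.

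Genes were tested with edgeR 4.0.16 (R 4.3.3): TMM scaling, filterByExpr, quasi-likelihood test, Benjamini-Hochberg adjustment, threshold 0.05. This replaced the authors' DESeq2, which (1.42.0), like limma-voom (limma 3.58.1), was an alternative, along with other scalings, filters, a replicate block, leaving out each library, distal segments only, and thinning. The procedure was tested on simulated data. Single values were compared by two-sided exact permutation of log2(CPM + 1) over all labellings. Nothing in the labels says how the animals were housed, so p-values measure the spread between libraries. Library totals of 1606909 to 2632560 counts leave levels under 3 counts, taken as the floor, unresolved, and this covers counting error only. Coordinates are 1-based.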

Additional observations from a re-analysis of the deposited data

Results flagged for a closer look

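Ddit4 in ASO 4, at 68.5 CPM against 21.2 to 23.8 CPM in the other 4 treated libraries, stood farther from its group than Dixon's limit for 5 samples allows. It was the 1 value so marked among 18 groups of 5 libraries, and about 1 in 20 is marked by chance. ASO 4 also had the highest summed slow fiber markers (7767 CPM) and Schwann cell markers (483 CPM) of the 10 libraries, and whether these bear on its Ddit4 value was not tested.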

How the results depend on the processing

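The falls of Tsc1 and Tsc2 kept their direction and stayed past the threshold under all alternatives that gave them a value, at log2 fold changes of −2.29 to −1.80 and −1.81 to −1.44. In the fit of most distal segments 0 of the genes were lower instead of 2, because Tsc1 and Tsc2 could not be fitted there. The count of higher genes, 0 in the main result, was 1 with RLE size factors (Foxo3), and 2 with upper quartile scaling and with DESeq2 (Foxo3 and Foxo4). Leaving out single libraries gave 0 to 1 higher (Foxo3 without ASO replicate 1, Foxo4 without ASO replicate 3 or 4) and 2 lower. The log2 fold changes of Foxo3, Foxo4, Ddit4, Sesn2 and Sesn3 were positive under every gene-level alternative, and the upstream Foxo3 segment on its own, at −3.29, turned the direction. Under scaling by total counts Foxo3, Foxo4 and Sesn3 lost an exact p under 0.05 (0.13, 0.10 and 0.44), and Foxo4 lost it without any 1 of 6 libraries (0.079). The exact p of Ddit4 was 0.024 without CTRL replicate 5 and that of Sesn2 was 0.0079 without CTRL replicate 3. The difference in distal share of Tsc1 was −0.06 percentage points without CTRL replicate 5 and −3.64 without ASO replicate 1, against 1.32 with all libraries and 4.05 without ASO replicate 5.

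Across all genes 920 were higher and 1363 lower. Scaling by total counts gave 528 higher and 1819 lower, so that 22.5% of calls were higher in place of 40.3%, and upper quartile scaling 51.1%. Most distal segments alone gave 232 and 335 among 5087 genes, and leaving out single libraries gave 692 to 1021 and 1127 to 1369. With the replicate block, 662 were higher and 1172 lower, and 0 and 2 of the genes described here. Same-numbered libraries had deviations correlated at −0.43 to 0.16, and 0 of 5 ASO libraries correlated best with their own number. No pairing by number was detected, though 5 libraries per group are too few to exclude one. With the block the FoxO targets had 3 higher and 6 lower, and the nutrient sensing genes 1 and 5. The Tsc2 segment 121 bp from the most distal end, with 0 to 9 counts per library, was too low to test.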
